A study of Mus musculus with 6 samples.

Results

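Peroxins are the proteins that build peroxisomes, and the 8 peroxin genes described here are those of protein import (Pex5, Pex7, Pex13, Pex14 and Pex6), membrane assembly (Pex3 and Pex19) and division (Pex11a). They were taken by gene name from a table of 28601 genes, where all 8 were present, and all 8 passed the filter on low counts, with Pex3 the lowest at 1321 counts in its poorest library. The liver samples came from 6 male mice that were 8 weeks old when they began CDAHFD, for 8 weeks by the sample titles and the series design. CDAHFD is a high-fat diet without choline, with amino acids in place of protein, that produces fatty liver with inflammation and fibrosis. Of the 6 mice, 3 were wild type (WT) and 3 carried PRDX1 Cys52Ser, a substitution at the cysteine through which peroxiredoxin 1 reduces hydrogen peroxide. All samples were liver, and the labels give neither the strain, the zygosity of the allele nor the way it was made, and no mice on another diet were compared. The treatment field of the same labels instead counts upward from 8 to 10 weeks over the WT samples and from 11 to 13 weeks over the Cys52Ser samples. Under that reading genotype and time on the diet cannot be told apart.

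Peroxisomes break down very long-chain and branched fatty acids, shorten bile acid side chains and make ether lipids, and their oxidases release hydrogen peroxide that catalase removes. Their enzymes are made in the cytosol and imported folded: PEX5 carries proteins with a carboxy-terminal signal (PTS1), PEX7 those with an amino-terminal signal (PTS2), PEX13 and PEX14 dock the loaded receptors, and PEX6, anchored by PEX26, takes part in pulling the receptor out for reuse. PEX3, PEX16 and PEX19 insert membrane proteins, and the PEX11 proteins elongate the membrane before division. In rodent liver Pex11a is a classic target of the fatty acid receptor PPARα, whose drug ligands multiply peroxisomes. The question here was whether genes that set peroxisome number follow the genes of peroxisomal enzymes when PRDX1 carries the substitution.

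Of the 8 peroxins, Pex11a was higher in Cys52Ser liver, 1.94-fold, and the other 7 did not pass the test. The background of that test, edgeR's quasi-likelihood test with Benjamini-Hochberg adjustment over 18648 genes at 0.05, was 4.98% of genes called in either direction and 2.52% called higher. The median log2 fold change of the 8 members was 0.39, against -0.00324 over all tested genes. In scaled counts the groups did not overlap in 4 members (Pex5, Pex14, Pex19 and Pex11a), each with Cys52Ser higher, while 29.7% of all tested genes had groups that did not overlap and 14.4% had them with Cys52Ser higher.

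The promoter of Pex11a is shown because Pex11a was the member called, with that of its family member Pex11g, which was not called, and that of Pex26, which was called among the further peroxins described. Each runs 5′ to 3′ in the direction of transcription, from 250 bases before to 50 bases after the RefSeq start, in build GRCm38.p6. Capitals mark matches to the motifs named after the sequences.
Pex11a, chr7:79743082-79743381, minus strand: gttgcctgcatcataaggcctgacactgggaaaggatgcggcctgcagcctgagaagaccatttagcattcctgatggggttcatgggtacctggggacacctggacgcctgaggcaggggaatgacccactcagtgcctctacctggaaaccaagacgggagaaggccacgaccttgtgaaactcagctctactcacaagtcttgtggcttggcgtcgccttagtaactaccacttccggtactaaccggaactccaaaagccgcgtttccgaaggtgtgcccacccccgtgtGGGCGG
Pex11g, chr8:3467599-3467898, minus strand: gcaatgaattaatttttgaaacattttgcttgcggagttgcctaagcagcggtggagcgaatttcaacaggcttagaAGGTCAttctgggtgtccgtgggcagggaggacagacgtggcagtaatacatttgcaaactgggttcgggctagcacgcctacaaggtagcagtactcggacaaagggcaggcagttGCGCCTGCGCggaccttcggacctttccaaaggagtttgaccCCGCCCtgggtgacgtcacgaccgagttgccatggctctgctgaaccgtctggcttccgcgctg
Pex26, chr6:121183417-121183716, plus strand: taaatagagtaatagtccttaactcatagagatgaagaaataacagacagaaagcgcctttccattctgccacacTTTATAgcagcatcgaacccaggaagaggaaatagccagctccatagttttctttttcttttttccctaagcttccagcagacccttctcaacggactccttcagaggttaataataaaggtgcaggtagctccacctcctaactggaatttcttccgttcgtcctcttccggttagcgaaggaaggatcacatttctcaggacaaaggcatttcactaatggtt
Counted from +1 at the start, Pex11a held a GC box (GGGCGG) at +45 to +50. Pex11g held a GC box on the opposite strand at -14 to -9, an NRF1 motif (GCGCA, any base, GCGC) on the opposite strand at -56 to -47 and a nuclear receptor half-site (AGGTCA) at -173 to -168. Pex26 held a TATAAA on the opposite strand at -175 to -170. None of these windows held the DR1 element of PPAR and RXR (AGGTCA, any base, AGGTCA), an E-box (CACGTG) or a CCAAT. Both strands were searched, and over 32851 RefSeq windows of 300 bases the shares with a match were 0.0396% for DR1, 16.3% for the half-site, 35.7% for the GC box, 4.6% for the NRF1 motif, 13.6% for TATAAA, 7.15% for the E-box and 37.4% for CCAAT. Every DR1 match also holds a half-site match. These matches describe letters in a window and do not show where a factor binds. Of the 8 members, 7 had a promoter in the RefSeq table.

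Pex11a (ENSMUSG00000030545, GRCm38 chromosome 7, 79735957 to 79743131, minus strand) encodes the PEX11 family member that PPARα ligands induce in liver. Its level was 73.9, 83.1 and 103 CPM (counts scaled to the library total and by TMM factors) in WT replicates 1, 2 and 3 and 169, 147 and 187 CPM in Cys52Ser replicates 1, 2 and 3. Each mutant library lay above each WT library. The means were 86.7 ± 14.9 and 168 ± 20.2 CPM (SD, n = 3), a log2 fold change of 0.95 with a standard error of 0.16 and a 95% confidence interval of 0.58 to 1.33 (edgeR adjusted p = 0.0267). The exact two-sided permutation p over the 6 libraries was 0.1, the smallest that 3 against 3 allow. On the deposited FPKM scale, which is per transcript length and relative to the library total without TMM factors, the level was 27.0 ± 2.44 FPKM for WT against 41.2 ± 1.91 FPKM for Cys52Ser (SD, n = 3). The log2 fold change was 0.60 with library totals alone (edgeR adjusted p = 0.0181), so Pex11a was called higher under that scaling too, at a smaller size. Of 18648 genes, 16.2% were called under that scaling, 293 of them higher and 2724 lower. Leaving out WT replicate 1, WT replicate 2, Cys52Ser replicate 1 or Cys52Ser replicate 3 ended the call, with adjusted p-values in edgeR of 0.0553, 0.0854, 0.0924 and 0.097 in that order and log2 fold changes from 0.80 to 0.95. Over all genes the 928 calls fell to 409, 57, 31 and 28 in those fits. An antisense gene model, Gm44706, overlaps Pex11a with at most 132 counts in a library, against 5054 or more for Pex11a.

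**Figure D1:**
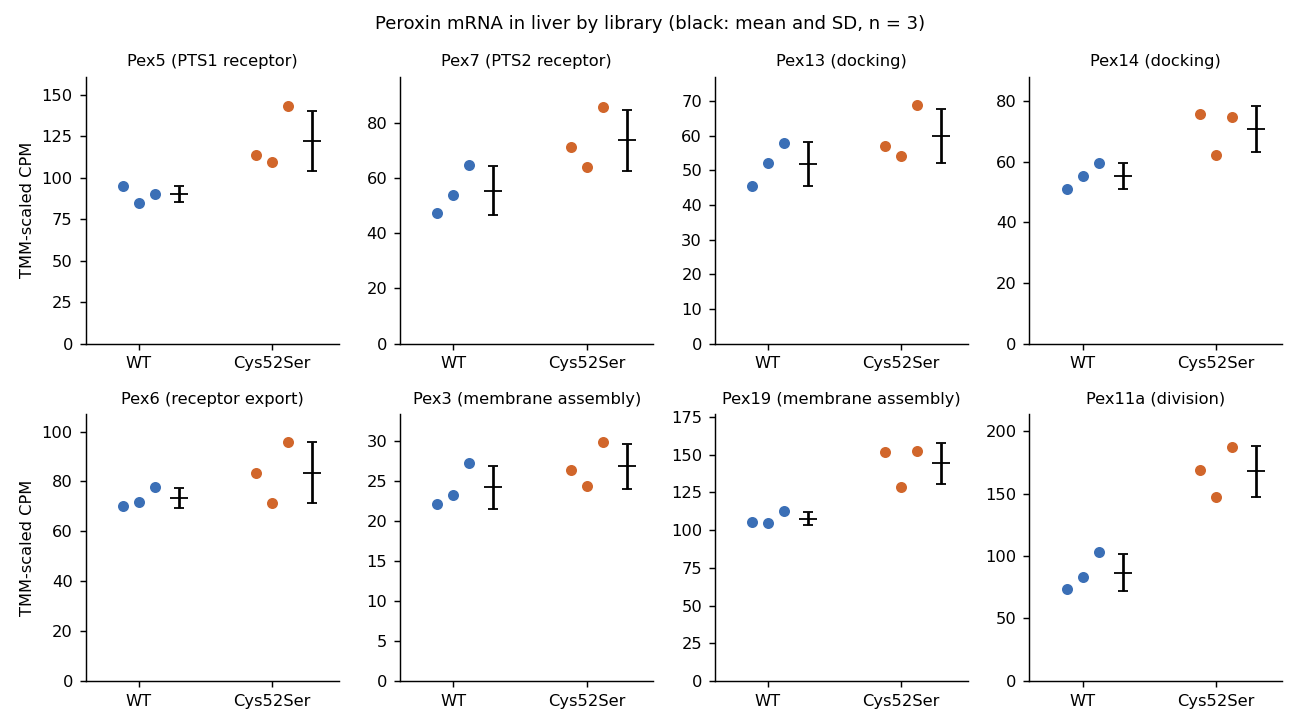
TMM-scaled CPM of the 8 peroxins in each library (blue, 3 WT; orange, 3 Cys52Ser), with the mean and SD of each group in black and axes starting at 0. Pex11a shows the widest gap, with WT at 73.9 to 103 CPM and Cys52Ser at 147 to 187 CPM.

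Pex11g, of the same family, was 38.3 ± 6.97 and 42.7 ± 6.92 CPM (SD, n = 3), a log2 fold change of 0.16 (95% confidence interval -0.24 to 0.55, edgeR adjusted p = 0.655). It did not pass, and its log2 fold change was -0.19 with library totals alone. Ratios within a library do not depend on the scaling between libraries. The ratio of Pex11a to Pex11g FPKM was 2.36, 2.52 and 2.38 in the WT libraries and 3.70, 4.47 and 4.54 in the Cys52Ser libraries. The groups did not overlap, and the mean ratio was 1.75-fold higher in Cys52Ser (exact two-sided permutation p = 0.1). This ratio was chosen after the values were seen. It compares genes within a library and does not show that Pex11g stayed constant.

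The import receptors had positive values that did not pass. Pex5 (chromosome 6, 124396816 to 124415067), the PTS1 receptor, was 94.8, 84.9 and 90.1 CPM in WT and 114, 109 and 143 CPM in Cys52Ser. The groups did not overlap. Its log2 fold change was 0.44 (95% confidence interval 0.13 to 0.75, edgeR adjusted p = 0.101). Pex7 (chromosome 10, 19853900 to 19907689), the PTS2 receptor, was 47.5, 53.9 and 64.9 CPM in WT and 71.3, 64.1 and 85.9 CPM in Cys52Ser. Cys52Ser replicate 2 lay just below WT replicate 3, and the log2 fold change of 0.41 did not pass (edgeR adjusted p = 0.175). The ratio of Pex7 to Pex5 FPKM was 0.202 ± 0.0362 for WT against 0.197 ± 0.00687 for Cys52Ser (SD, n = 3), with overlapping groups.

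The docking genes had lower FPKM than Pex5. Pex13 (chromosome 11, 23646479 to 23665959) was 51.9 ± 6.23 CPM in WT livers against 60.0 ± 7.75 CPM in Cys52Ser (SD, n = 3), a log2 fold change of 0.21 (95% confidence interval -0.11 to 0.53, edgeR adjusted p = 0.419). Pex14 (chromosome 4, 148960535 to 149099876) was 51.0, 55.3 and 59.6 CPM in WT and 76.0, 62.1 and 74.8 CPM in Cys52Ser. Its groups did not overlap, and its log2 fold change of 0.36 did not pass (edgeR adjusted p = 0.125). Pex13 overlaps Pus10 on the opposite strand, which reached 1652 counts in a library. The libraries marked strand, but the sources used here do not state whether counting used it. Pex3 likewise overlaps Adat2, which reached 264 counts, and Pex16 overlaps Large2, which reached 220 counts. The values of Pex13, Pex3 and Pex16 are uncertain to that extent.

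In receptor export, Pex26 rose and Pex6 did not pass. Pex6 (chromosome 17, 46711463 to 46725541), an ATPase, was 70.2, 71.9 and 77.9 CPM in WT and 83.3, 71.6 and 95.8 CPM in Cys52Ser, with overlapping groups and a log2 fold change of 0.19 (edgeR adjusted p = 0.451). Pex26, the membrane anchor of the export complex and one of the further peroxins, rose 1.43-fold from 18.2 ± 1.31 to 26.1 ± 2.14 CPM (SD, n = 3; by edgeR, adjusted p = 0.0494). The ratio of Pex26 to Pex6 FPKM, chosen after the values were seen, was 1.27-fold higher with overlapping groups. The call of Pex26 was lost in 14 of 18 alternatives, among them library totals alone (log2 fold change 0.16, adjusted p = 0.412) and every fit without 1 library.

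None of the 3 membrane assembly genes passed in edgeR, and DESeq2 called Pex19. Pex3 (chromosome 10, 13523842 to 13553142), the membrane anchor for incoming PEX19, was 22.1, 23.2 and 27.2 CPM in WT and 26.3, 24.3 and 29.8 CPM in Cys52Ser. The groups overlapped, and the log2 fold change was 0.15 (95% confidence interval -0.15 to 0.45, edgeR adjusted p = 0.554). Pex19 (chromosome 1, 172126755 to 172135283), the soluble carrier of membrane proteins, was 105, 105 and 113 CPM in WT and 152, 129 and 152 CPM in Cys52Ser. Its groups did not overlap, and its log2 fold change of 0.42 did not pass (edgeR adjusted p = 0.078). Pex16, another assembly gene whose log2 fold change was 0.36 with TMM and -0.00033 with library totals alone, was 44.3 ± 2.19 and 56.9 ± 9.66 CPM (SD, n = 3; by edgeR, adjusted p = 0.177). The ratio of Pex19 to Pex3 FPKM was 5.57 ± 0.387 for WT against 6.71 ± 0.434 for Cys52Ser (SD, n = 3). It was 1.20-fold higher with no overlap (exact two-sided permutation p = 0.1, the smallest that 3 against 3 allow). It pairs the genes with the largest and the smallest log2 fold change of these 3, and neither passed in edgeR.

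Among 5 further peroxins and the PEX5-like gene Pex5l, 1 was called higher (Pex26) and none lower, with a median log2 fold change of 0.17 that was -0.18 with library totals alone, where none was called by edgeR. Pex2 and Pex10, of the ubiquitin ligase that marks PEX5 for export, did not pass, and both were negative with library totals alone. With TMM the log2 fold changes were 0.07 for Pex2 (edgeR adjusted p = 0.798) and 0.18 for Pex10 (adjusted p = 0.624). Pex5l, a gene known mainly from brain, was at 0.153 to 2.06 CPM in the 6 libraries and was not called (log2 fold change -0.67, edgeR adjusted p = 0.668). DESeq2 on the same counts called 4 of the 8 members higher (Pex5, Pex14, Pex19 and Pex11a). It called 17.6% of the 15723 genes to which it gave an adjusted p.

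**Figure D2:**
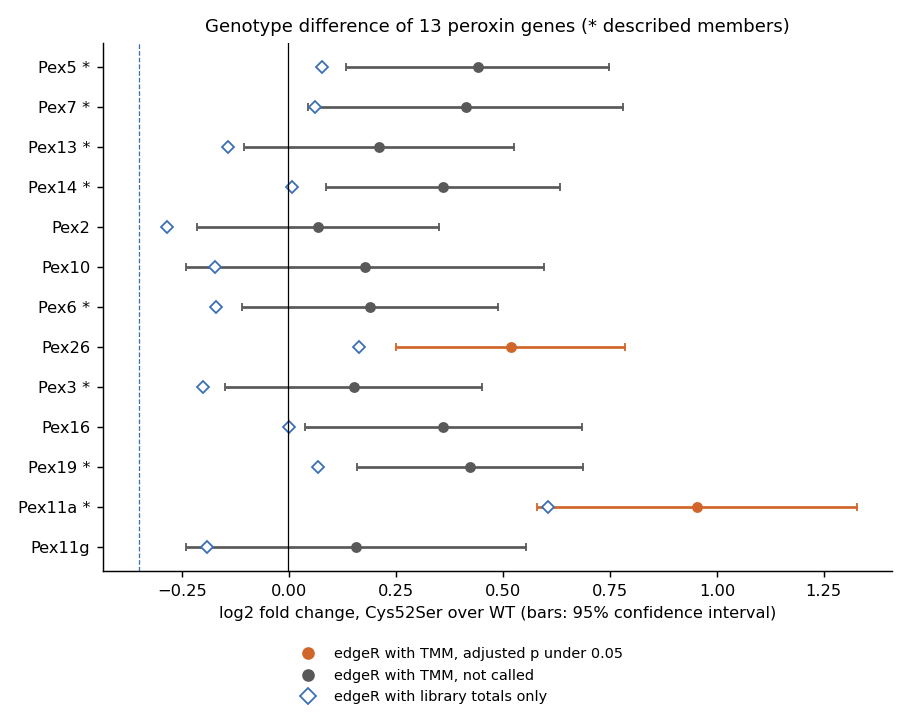
Log2 fold changes of 13 peroxin genes with TMM scaling (circles, with 95% confidence intervals; orange where the adjusted p was under 0.05) and with library totals alone (open diamonds). The solid line is at the median of all tested genes with TMM (-0.00324) and the dashed line at that with library totals (-0.35). Pex11a, Pex5, Pex7, Pex14, Pex19 and Pex26 lie right of 0 under both, while Pex3, Pex6, Pex13, Pex2, Pex10, Pex11g and Pex16 change side.

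The sign of the log2 fold change depended on the scaling for Pex3, Pex6 and Pex13, and not for the other 5 members. The median of all genes lay at -0.35 with library totals alone, and TMM factors were 1.05 to 1.21 in WT and 0.814 to 0.963 in Cys52Ser. With library totals the median of the 8 members was 0.03, with 5 members above 0 and 3 below. Pex3 was then -0.20, Pex6 -0.17 and Pex13 -0.14, and Pex14 was 0.01. Pex5, Pex7 and Pex19 were 0.08, 0.06 and 0.07. For these genes and Pex14 the unadjusted p-values in edgeR were 0.459 to 0.934 there, so their side of 0 was not resolved. Each member lay above the all-gene median under both scalings. A change of scaling moves all genes by nearly the same amount, so the second scaling is no separate check of that position. On the FPKM scale, Cys52Ser was lower without overlap for Pex3, at 5.06 ± 0.171 in WT and 4.41 ± 0.159 in Cys52Ser (SD, n = 3), and for Pex6, at 19.3 ± 0.569 and 17.1 ± 1.23 (SD, n = 3). Over all tested genes that held for 37.7% on the FPKM scale. The summed FPKM of the 7 members other than Pex11a was 99.7 ± 3.72 for WT against 98.9 ± 4.12 for Cys52Ser (SD, n = 3), with overlapping groups, whereas their summed TMM-scaled CPM was 458 ± 28.9 and 582 ± 68.0 without overlap.

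Per transcript length, the order of the members in WT was Pex19 at 28.2 FPKM, Pex11a at 27.0, Pex5 at 22.8, Pex6 at 19.3, Pex13 at 11.1, Pex14 at 8.77, Pex3 at 5.06 and Pex7 at 4.54. Pex19 overlapped Pex11a and Pex11a overlapped Pex5 in these 3 libraries, while the neighbours from Pex5 down to Pex7 did not overlap. In Cys52Ser, Pex11a came first at 41.2 FPKM, above Pex19 at 29.6 in every library. The ratio of Pex11a to the summed FPKM of the other 7 was 0.240, 0.268 and 0.305 in WT and 0.420, 0.411 and 0.416 in Cys52Ser. It was 1.53-fold higher in Cys52Ser, with little spread there (exact two-sided permutation p = 0.1). This ratio sets the member that was called against those that were not, so it restates that call.

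Genes of peroxisomal enzymes and membrane transporters gave the values to set beside the peroxins. Of 64 such genes 62 were tested, 12 rose and 1 fell, beside a background of 2.52% called higher and 2.46% called lower. Their median log2 fold change was 0.43 with TMM and 0.09 with library totals, where 9 were higher and 2 lower. Over all 18648 tested genes, library totals gave 293 higher and 2724 lower. The 13 calls among enzymes and transporters became 3, 2 and 8 without WT replicates 1, 2 and 3. They became 0, 10 and 0 without Cys52Ser replicates 1, 2 and 3. In the same fits the 928 calls over all genes became 409, 57 and 790, and 31, 504 and 28. The ratio of the summed FPKM of enzymes and transporters to that of the 7 members other than Pex11a was 41.2, 45.3 and 47.4 in WT and 48.0, 48.2 and 49.7 in Cys52Ser. It was 1.09-fold higher in Cys52Ser without overlap (exact two-sided permutation p = 0.1), while for the β-oxidation enzymes alone the groups overlapped, at 18.3 ± 1.44 and 17.8 ± 0.691 (SD, n = 3). Both ratios were chosen after the values were seen. With library totals alone the median log2 fold change changed sign for α-oxidation and ether lipids (0.16 with TMM, -0.20) and was near 0 for oxidases and other matrix enzymes (0.36 with TMM, -0.000767). These lists were chosen with earlier results of these data known, and no test set them against the peroxins.

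In peroxisomal β-oxidation, 3 of 20 tested genes rose and 1 fell. The acyl-CoA thioesterases Acot4 and Acot3 rose 3.40-fold and 9.13-fold, and Crot, which makes carnitine esters of shortened acyl chains for export, was 1.94-fold lower (edgeR adjusted p = 0.0174, 0.0287 and 0.0245). Acot3 and Acot4 both have close paralogs, neighbours on chromosome 12, so the reads of both are uncertain. Ehhadh, the bifunctional enzyme and also a PPARα target, was 334 ± 160 CPM in WT and in Cys52Ser 364 ± 38.9 CPM (SD, n = 3; by edgeR, adjusted p = 0.861). Ehhadh was named after its values were seen.

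Of 12 membrane transporters and related membrane proteins, 5 rose and none fell in edgeR with TMM, while 4 were called higher and 1 lower with library totals alone. The acyl-CoA synthetase Acsl1 rose 2.53-fold, Mpv17l 2.43-fold and the acyl-CoA transporter Abcd3 1.88-fold (edgeR adjusted p = 0.0243, 0.0243 and 0.033). Abcd3 had the pattern most like that of Pex11a among 79 genes of the peroxisomal lists, with a root mean square difference of 0.05 in centred log2 CPM over the 6 libraries, where Pex11a itself spanned 1.34. The ratio of Pex11a to Abcd3 FPKM was 0.641 ± 0.0157 for WT against 0.659 ± 0.0317 for Cys52Ser (SD, n = 3), with overlapping groups. Abcd3 was picked for its likeness to Pex11a over these same libraries, so a steady ratio follows from that choice. For the other members the nearest genes were Mlycd for Pex19 and Pex14, Acbd5 for Pex3 and Pex6, Tmem135 for Pex5, Nudt12 for Pex7 and Gstk1 for Pex13. Their root mean square differences were 0.05 to 0.09.

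Of 7 genes of α-oxidation and ether lipid synthesis, Hacl1 rose 1.898-fold (edgeR adjusted p = 0.05) and Slc27a2 1.79-fold (adjusted p = 0.0499), both just under the threshold. Of 23 tested oxidases and other matrix enzymes, Paox rose 1.73-fold (edgeR adjusted p = 0.0317) and Pipox 1.60-fold (adjusted p = 0.05, just under the threshold). Next by p was the epoxide hydrolase gene Ephx2, which did not pass (adjusted p = 0.0584). Catalase, which removes peroxisomal hydrogen peroxide, was 1346 ± 191 CPM in WT livers against 1906 ± 275 CPM in Cys52Ser (SD, n = 3) without passing (adjusted p = 0.155 in edgeR). Catalase was named after its values were seen. None of the 4 cargoes of PEX7 passed in edgeR (2 had an unadjusted p under 0.05, and DESeq2 called 2). The log2 fold changes were 0.63 for Acaa1a (edgeR adjusted p = 0.0714), 0.62 for Phyh (adjusted p = 0.105), 0.28 for Acaa1b (adjusted p = 0.476) and -0.26 for Agps (adjusted p = 0.299). Agps and Pex7 thus had opposite signs. None of 11 genes of shared division machinery and turnover passed in edgeR. In that list 2 had an unadjusted p under 0.05, DESeq2 called 1 higher, and with library totals alone 2 were called lower and the median moved from 0.10 to -0.26. The log2 fold changes were 0.24 for the membrane-cutting GTPase gene Dnm1l (edgeR adjusted p = 0.212), 0.51 for the protease gene Tysnd1 (adjusted p = 0.12) and 0.39 for Mief2 (adjusted p = 0.267).

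Ppara itself rose 2.78-fold from 24.8 ± 6.78 to 68.9 ± 8.33 CPM (SD, n = 3; by edgeR, adjusted p = 0.0207). Its partner Rxra rose 1.55-fold (edgeR adjusted p = 0.05, just under the threshold). These were the calls among 6 genes of the receptor and its partners, and the coactivator Med1 did not pass (edgeR adjusted p = 0.104). With library totals alone 1 of the 6 was called higher. Of 18 PPARα targets outside the peroxisome 1 rose, the fatty acid hydroxylase Cyp4a32, 2.06-fold (edgeR adjusted p = 0.0434), and none fell. With library totals alone 0 of the 18 were called higher and 3 lower, where 14.6% of all genes were called lower, and DESeq2 called 6 higher and 1 lower. With TMM the log2 fold changes of the 18 were positive for 13 and negative for 5. The hormone gene Fgf21 was among the negative ones, at 55.6 ± 36.7 CPM in WT livers against 14.8 ± 0.851 CPM in Cys52Ser (SD, n = 3; by edgeR, adjusted p = 0.0651). The lipid carrier Fabp1 stood at 0.70 in log2 fold change (adjusted p = 0.0936).

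**Figure D3:**
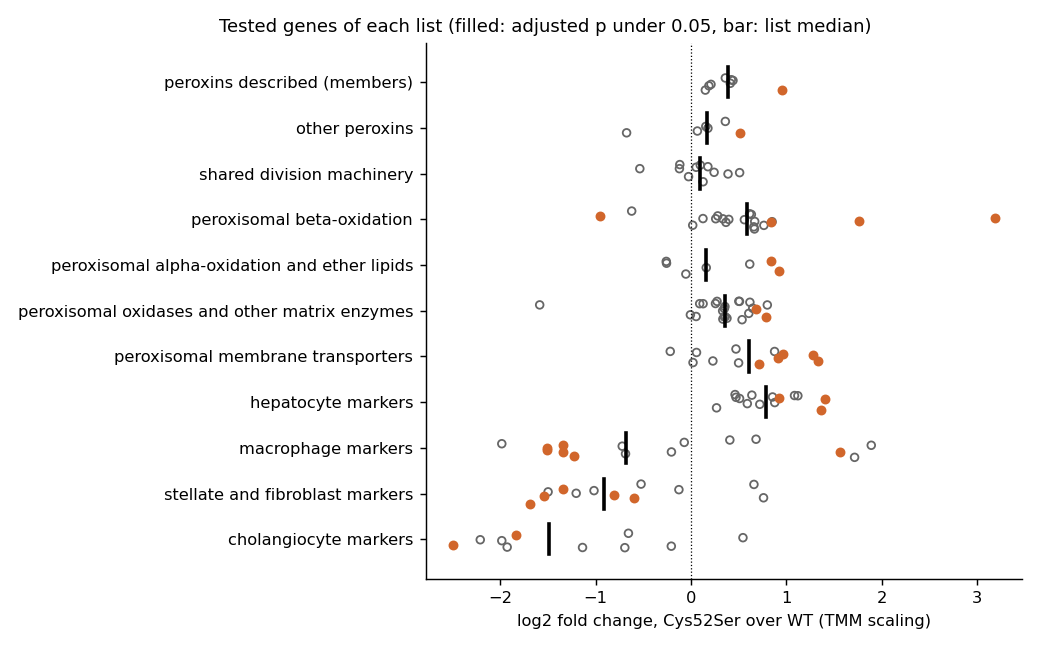
Log2 fold changes with TMM scaling of the tested genes in each list (filled where the adjusted p was under 0.05), with the list median as a bar and a dotted line at the median of all tested genes (-0.00324). The medians were 0.39 for the 8 members, 0.59 for β-oxidation, 0.60 for transporters and 0.79 for hepatocyte markers. They were negative for macrophage, stellate and cholangiocyte markers, although 5 of the 15 macrophage markers lay above 0.

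Markers of liver cell types moved with genotype beside these genes. All 14 hepatocyte markers in the table had positive log2 fold changes with TMM (13 with library totals alone) with a median of 0.79, and 3 rose: Cps1 2.64-fold, Cyp2f2 2.57-fold and the hepatocyte regulator Hnf4a 1.898-fold (edgeR adjusted p = 0.0302, 0.0302 and 0.0355). Their summed level was 50739.9 to 85134.9 CPM in WT and 125735 to 155510 CPM in Cys52Ser. Of 15 macrophage markers 5 fell, led by Cd9, Gpnmb and Trem2, and Clec4f rose, beside 2.46% of all genes called lower and 2.52% higher. The list was mixed, with 10 log2 fold changes negative and 5 positive. Without overlap, Cys52Ser was lower for 7 markers and higher for 4 (Clec4f, Marco, Timd4 and Vsig4), beside 2838 and 2693 of 18648 genes. Summed levels were 3671 to 5151 CPM in WT and 2242 to 2680 CPM in Cys52Ser, with Lyz2 the largest term in each library. Of 12 stellate and fibroblast markers 5 fell, led by Lum, Ngfr and Col3a1 (1631 to 2762 against 992 to 1244 CPM), and of 10 cholangiocyte markers 2 fell, Pkhd1 and Cldn7 (645 to 1363 against 161 to 461 CPM). Most of the cholangiocyte sum was Spp1, which the macrophage list also holds. Without Spp1, a sum added after the data were seen, the other 9 cholangiocyte markers were at 201, 122 and 87.1 CPM in WT and 53.9, 126 and 45.2 CPM in Cys52Ser, so the groups overlapped, with Cys52Ser replicate 2 apart from the other Cys52Ser libraries. Of 10 sinusoidal endothelial markers 3 rose, Kdr, Dnase1l3 and Cdh5 (461 to 514 against 542 to 650.2 CPM), although none was called with library totals alone. None of 9 lymphocyte markers passed in edgeR, where 2 had an unadjusted p under 0.05 and DESeq2 called 1 (20.1 to 21.6 against 19.1 to 27.4 CPM). None of these markers was at 0 in any library. In bulk tissue, fewer cells of a type and less RNA per cell cannot be told apart, and the part of these shifts in the values of the peroxins was not tested by a fit.

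The peroxins were also set relative to hepatocyte markers, a measure chosen after the values were seen. The geometric mean of the 14 markers was 556, 741 and 828 FPKM in WT and 938, 980.5 and 1075 FPKM in Cys52Ser, without overlap. As a percentage of that mean, Pex11a was 4.49, 3.54 and 3.59 in WT and 4.39, 4.002 and 4.006 in Cys52Ser. Its groups thus overlapped through WT replicate 1 alone, and WT replicates 2 and 3 lay below each Cys52Ser library. Abcd3 (6.04 ± 0.757 and 6.27 ± 0.176; SD, n = 3), a gene picked for its likeness to Pex11a, overlapped too. The groups of Ppara, at 0.935 ± 0.322 in WT and 1.42 ± 0.226 in Cys52Ser (SD, n = 3), also overlapped, again through WT replicate 1. Pex3 was 0.900, 0.664 and 0.634 in WT and 0.457, 0.444 and 0.427 in Cys52Ser, lower without overlap. In all, 6 of the 8 members were lower without overlap on this measure, where 60.6% of all tested genes were, 0 were higher, and Pex11a and Pex19 overlapped. WT replicate 1, with the lowest hepatocyte marker level, had the highest percentage for each of the 8 members.

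**Figure D4:**
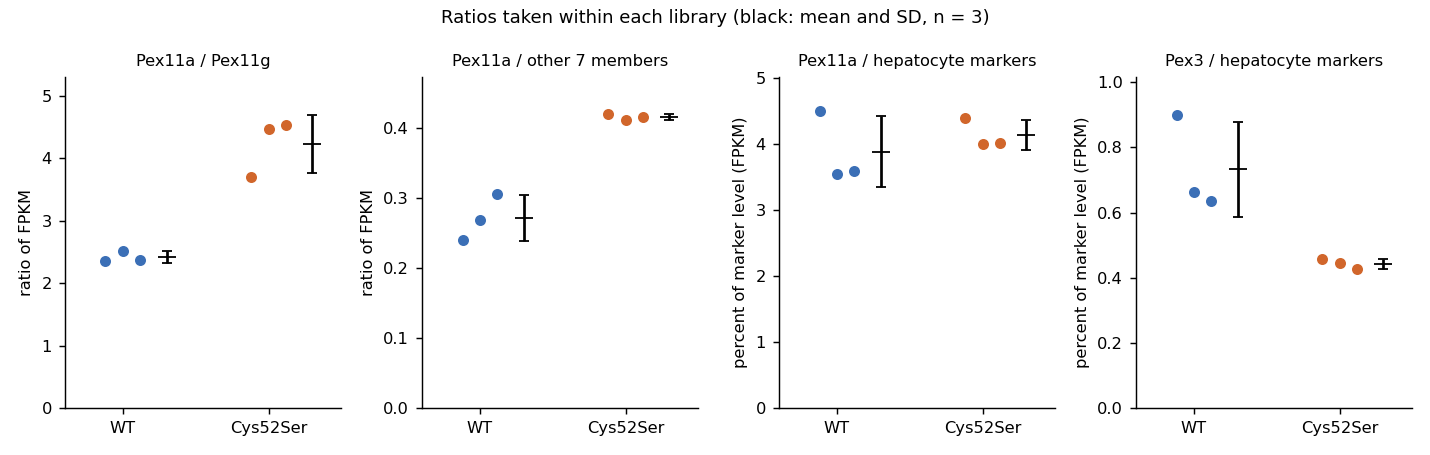
Ratios taken within each library for WT (blue) and Cys52Ser (orange), with the mean and SD in black and axes starting at 0: Pex11a to Pex11g, Pex11a to the sum of the other 7 members, and Pex11a and Pex3 as a percentage of the hepatocyte marker level. The first pair of ratios is higher in every Cys52Ser library, and Pex3 is lower in every Cys52Ser library. Pex11a overlaps relative to hepatocyte markers through WT replicate 1 alone.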

How the data were processed

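Liver RNA of 6 mice was sequenced. Per the labels' protocols, oligo(dT)-selected RNA was made into strand-marked libraries with molecular identifiers. In the submitters' processing notes stand the build mm9 and, with no role given, StringTie 1.3.4d, HISAT2 2.0.4, cutadapt 1.9, UMI-tools, edgeR and DESeq2. Positions in the table follow another build: of 28524 identifiers found in GENCODE M21 (GRCm38), 89.9% had identical positions. Pex19 is among those that differ, and positions are given as in the table.

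Per the file headers, the authors deposited for each gene an FPKM and an estimated count in every library. Counts were whole numbers, summing to 53318196 to 73900923 per library. Among single-transcript genes counted at least 1000 times, 89.9% to 92.4% matched, to within 1%, FPKM multiplied by length and a library constant, so they are treated as estimates. All pairs of libraries differed beyond counting noise (chi-square per degree of freedom of 86.9 or more). Count columns not used numbered 0.

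Counts were tested with edgeR 4.0.16 (R 4.3.3; filterByExpr with a minimum of 10, TMM, robust quasi-likelihood, with genotype alone in the model). Benjamini-Hochberg adjustment covered 18648 genes. CPM use effective library sizes. Alternatives were other factors and filters, a non-robust fit, DESeq2 1.42.0, limma 3.58.1 on log2(FPKM + 0.5, 0.1 or 1), on TMM-rescaled FPKM, a replicate block and leaving out each library. The test was checked on simulated data.

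The members and lists were chosen with earlier results of these data known. Some genes of these lists are not reported here and are left out of the lists' counts, though not of the fits. Named genes were all peroxins still listed, the 3 smallest p-values of each list and, for each member, the nearest pattern among the peroxisomal lists; others are stated as such. The hepatocyte list held 1 symbol (Tf) that the table does not use.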

Additional observations from a re-analysis of the deposited data

How the results depend on the processing

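The count of changed genes, 928, was 3017 with library totals, 2766 in DESeq2, 2903, 2954 and 2794 in limma on FPKM with pseudocounts of 0.5, 0.1 and 1, and 28 to 790 with 1 library left out; 50.5% were higher with TMM and 9.71% with library totals. The count of members called was 4 in DESeq2 and 0 to 1 with 1 library left out. Their median log2 fold change was 0.0343 with library totals, 0.0332, 0.0358 and 0.0304 in the 3 limma fits, and 0.26 to 0.47 with 1 library left out. The count of enzymes and transporters called was 30 in DESeq2 and 0 to 10 with 1 library left out. Pex11a kept its direction in all 18 alternatives (log2 fold change 0.59 to 1.04) and its call in 14, the exceptions being 4 fits without 1 library. Each such fit leaves 2 mice in 1 group.

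Some log2 fold changes turned negative. With library totals Pex3 was -0.20, Pex6 -0.17, Pex13 -0.14, Pex2 -0.28, Pex10 -0.17, Pex11g -0.19 and Pex16 -0.00033. In limma on FPKM + 0.5 the same genes were -0.18, -0.17, -0.13, -0.28, -0.13, -0.18 and -0.0018; with 0.1 they were -0.19, -0.17, -0.14, -0.28, -0.15, -0.19 and -0.0019; with 1 they were -0.16, -0.16, -0.13, -0.27, -0.11, -0.17 and -0.0017. These 4 settings share the use of library totals without TMM factors, which lowers the median of all genes. None of these values passed. With 1 library left out Pex2 ran from -0.0314 to 0.15.

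With the replicate number as a block, 729 genes, 1 member (Pex11a, log2 fold change 0.96, edgeR adjusted p = 0.0323) and 15 enzymes and transporters were called, and the median of the members was 0.39. Same-numbered libraries deviated together with correlations of 0.0051, 0.166 and 0.0642, so the numbers were not taken as pairs. Of the same-numbered libraries, only those numbered 2 correlated best with each other in both directions. So did WT replicate 3 and Cys52Ser replicate 1, with a correlation of 0.161. Among peroxins the block ended the call of Pex26.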
